A study of Mus musculus with 35 samples.

Results

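Icam1 (ENSMUSG00000037405.8) and Vcam1 (ENSMUSG00000027962.14) encode cell-surface adhesion molecules to which circulating leukocytes bind. Both were picked by gene name, 2 of the 19573 genes with a value in FPKM (fragment counts divided by transcript length and by sequencing depth), and both passed the filter on low values. Astrocytes were purified by flow cytometry from the cortex of Aldh1l1egfp mice, in which the Aldh1l1 promoter drives a green fluorescent protein in astrocytes, at postnatal day 30 to 35. All animals carried this reporter, and they received either lipopolysaccharide (LPS, an outer-membrane component of bacteria that provokes inflammation) at 5 mg/kg or saline. RNA was sequenced from 35 libraries in 8 groups. Female saline and LPS libraries numbered 4 and 5 at 3 h, 5 and 4 at 24 h, and 4 and 3 at 72 h, and males gave 5 of each at 24 h. The question addressed here is how the transcripts of these molecules changed over time with LPS and whether males and females differed at 24 h.

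ICAM-1 and VCAM-1 are members of the immunoglobulin superfamily. ICAM-1 binds the leukocyte integrins LFA-1 and Mac-1, which share the beta subunit encoded by Itgb2, and VCAM-1 binds integrins that contain the alpha 4 subunit encoded by Itga4. Both are best known from endothelial cells, where inflammatory cytokines induce them through the transcription factor NF-kB, and both can be made by astrocytes.

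Icam1 lies on chromosome 9 from 21015985 to 21028817 on the plus strand (GENCODE M21, build mm10). Its 1 protein-coding transcript has 7 exons, and the annotation holds 1 further transcript with a retained intron. Vcam1 lies on chromosome 3 from 116109949 to 116129688 on the minus strand, with 3 protein-coding transcripts among 4. The longest of these has 9 exons and a shorter one has 5. FPKM are given per gene, so these forms were not separated. For Icam1, the member whose level changed, the 250 bases before the RefSeq start are shown because they hold matches to motifs of factors that inflammatory signals activate (RefSeq, GRCm38.p6, chr9:21015690-21015939, plus strand). No Vcam1 promoter is shown.
Icam1 promoter: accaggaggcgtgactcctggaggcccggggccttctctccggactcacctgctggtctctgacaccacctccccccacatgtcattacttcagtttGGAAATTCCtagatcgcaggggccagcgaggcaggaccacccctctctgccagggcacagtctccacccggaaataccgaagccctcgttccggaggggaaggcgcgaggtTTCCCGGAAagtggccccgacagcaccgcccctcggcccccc
Capitals mark GGAAATTCC, the form of the kB element described in the human ICAM1 promoter, at position -153 from the RefSeq start, and TTCCCGGAA, a match to the GAS motif TTCNNNGAA bound by STAT factors, at -42. The kB form was added to the search after the sequence was seen. It occurs in 0.286% of 32851 RefSeq promoter windows of the same length, and the GAS motif occurs in 7.02%. The NF-kB consensus motif, found in 3.90% of these windows, had 0 matches here, as had TATAAA, found in 12.4%. A TATAAA lies at 13 bases after the RefSeq start, which is 32 bases before the GENCODE start. Both strands were searched, and the matches do not overlap each other. They describe the letters only and say nothing of binding.

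The FPKM of a library summed to between 456417 and 565592, and genes of the mitochondrial genome made up 4.86% to 24.4% of the sum. In 8 libraries this share was under 8%, namely female saline 72 h replicates 3 and 4, female LPS 3 h replicates 4 and 5, female LPS 24 h replicate 2, and male LPS 24 h replicates 1, 4 and 5. At 24 h, 11 libraries were deposited in a different number format (single precision) from the rest. This is not a term of the fit behind the values given; values within each format, and from a fit with the format as a term, stand beside those at 24 h. The astrocyte label held: the 12 astrocyte markers averaged between 8.41 and 8.99 in every group on the log2(FPKM + 1) scale, and Slc1a2, the main glutamate transporter, passed no LPS comparison. Of these markers only Gjb6, in females at 24 h, and Aldoc, in males at 24 h, were called, both higher, beside 2.54% and 7.08% of all genes. Neither was called without the 8 libraries of low mitochondrial share. The mean of the 15 endothelial markers ran from 2.35 to 4.01, so transcripts of vessel cells were also present. So were those of other cells. Group means ran from 4.67 to 6.24 for oligodendrocyte, 3.06 to 4.34 for neuronal and 2.23 to 4.47 for microglial markers.

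In saline libraries the levels of the members differed widely. Vcam1 averaged 131 ± 22.3 FPKM (SD, n = 18) and ranked 314 of 19573 genes, in the top 1.60%. Its lowest saline library was at 94.8 and its highest at 189 FPKM. Icam1 averaged 1.59 ± 0.944 FPKM (SD, n = 18), from 0.0809 to 3.89, and ranked 14651. By its group mean after LPS, Icam1 ranked 1434 at 3 h (7.33% from the top), 6901 in females and 4451 in males at 24 h, and 8978 at 72 h. Vcam1 ranked between 284 and 465 in the LPS groups. FPKM are corrected for transcript length, so these levels can be set beside each other.

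At 3 h, Icam1 rose in females. The 4 saline libraries were at 1.49, 1.24, 1.73 and 2.52 FPKM, and the 5 LPS libraries at 51.4, 44.4, 33.5, 37.4 and 40.4 FPKM. Every LPS library was above every saline library, the lowest of them 13.3 times the highest saline value. The means were 41.4 ± 6.86 and 1.75 ± 0.555 FPKM (SD), a ratio of 23.7. On the log2(FPKM + 1) scale, which understates changes of genes with low levels, the difference was 3.95 ± 0.28 (SE, 95% interval 3.38 to 4.53, adjusted p = 4.51e-12 by limma with Benjamini-Hochberg adjustment over 19426 genes). Icam1 had the 17th largest log2 fold change of all genes tested. Genes called higher made up 1.94% of those tested in this comparison, and 1 of the 2 members was among them. Genes called in either direction made up 2.38%.

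At 3 h, Vcam1 gave 126, 135, 94.8 and 113 FPKM with saline, and 138, 148, 149, 149 and 134 FPKM with LPS. The lowest LPS library lay just under the highest saline library, so the groups overlapped. The means were 143 ± 7.20 and 117 ± 17.4 FPKM (SD), and the log2 difference of 0.30 ± 0.18 (SE, 95% interval -0.08 to 0.68) did not pass the test (adjusted p = 0.557, limma). This interval leaves room for a change of either sign, although its upper bound lies below the lower bound for Icam1.

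At 24 h, Icam1 was again higher with LPS in both sexes. In females the 5 saline libraries were at 0.0809, 0.940, 0.580, 1.06 and 1.52 FPKM, and the 4 LPS libraries at 12.3, 6.84, 8.72 and 9.01 FPKM. The groups did not overlap, with means of 0.836 ± 0.540 and 9.21 ± 2.25 FPKM (SD) and a ratio of 11. The log2 difference was 2.51 ± 0.28 (SE, 95% interval 1.93 to 3.08, adjusted p = 3.2e-07, limma), and 2.54% of genes were called higher. Within the number formats the log2 difference was 2.75 among single-precision libraries (3 LPS, 3 saline) and 2.14 among double-precision ones (1 LPS, 2 saline), the latter with an adjusted p of 0.468. With the format as a term it was 2.58 (adjusted p = 1.13e-05, limma).

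In males at 24 h, Icam1 was at 1.04, 1.34, 1.14, 1.86 and 1.14 FPKM with saline and at 8.33, 9.90, 10.6, 25.4 and 29.5 FPKM with LPS. The LPS libraries fell into a lower set of 3 and a higher pair, replicates 4 and 5, which are also 2 of the 3 male LPS libraries with a low mitochondrial share (5.32% and 4.86%). The means were 16.8 ± 9.92 and 1.30 ± 0.327 FPKM (SD), a ratio of 12.8. The log2 difference was 2.78 ± 0.27 (SE, 95% interval 2.23 to 3.32, adjusted p = 1.57e-08, limma). In this comparison 7.08% of genes were called higher, a larger share than in females, and 8.9% were called in either direction. Without the libraries of low mitochondrial share, which left 2 male LPS libraries, the log2 difference was 2.30 (adjusted p = 1.40e-05, limma). Within the formats it was 2.22 and 3.09, and with the format as a term 2.68 (adjusted p = 4.43e-06, limma). The LPS effect in males minus that in females was 0.27 ± 0.39 (SE, 95% interval -0.52 to 1.07, adjusted p = 0.949, limma), or 0.094 with the format as a term, and its sign turned under 3 of the alternatives tried, so no difference between the sexes was shown.

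Vcam1 at 24 h had a lower mean with LPS in each sex, and neither difference passed the test. Female saline libraries were at 143, 145, 135, 132 and 157 FPKM, and female LPS libraries at 103, 96.4, 128 and 119 FPKM. These groups did not overlap, with means of 142 ± 9.62 and 112 ± 14.7 FPKM (SD), but the log2 difference of -0.35 ± 0.18 (SE, 95% interval -0.73 to 0.02) had an adjusted p of 0.397 by limma, where 3.34% of genes were called in either direction. Male saline libraries were at 150, 151, 189, 106 and 122 FPKM, and male LPS libraries at 106, 80.3, 89.5, 174 and 145 FPKM. The groups overlapped widely, and the pair of LPS libraries that were high for Icam1 were also the high pair for Vcam1. The means were 143 ± 31.7 and 119 ± 39.7 FPKM (SD), and the log2 difference was -0.30 ± 0.17 (SE, 95% interval -0.66 to 0.05, adjusted p = 0.237, limma). Within the formats the male difference had opposite signs, -0.81 among single-precision libraries and 0.21 among double-precision ones, and it was -0.31 with the format as a term. Without the libraries of low mitochondrial share, which left 2 male LPS libraries, it was -0.72 (adjusted p = 0.0796, limma). In males it passed the test after quantile normalization (-0.52, adjusted p = 0.0485), where its adjusted p over all alternatives ran from 0.0485 to 0.701.

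At 72 h, Icam1 libraries still stood apart by treatment, by a smaller margin. The 4 saline libraries were at 1.68, 1.87, 3.89 and 3.56 FPKM and the 3 LPS libraries at 7.19, 5.02 and 6.23 FPKM. Each LPS library exceeded each saline library, with means of 6.15 ± 1.09 and 2.75 ± 1.14 FPKM (SD) and a ratio of 2.23. The log2 difference of 0.97 ± 0.32 (SE, 95% interval 0.31 to 1.63, unadjusted p = 0.00514) did not pass over all genes (adjusted p = 0.577, limma), in a comparison that called 0.0772% of genes. In the authors' deposited table the log2 fold change at 72 h was 1.08 with an adjusted p of 0.0125. The 2 higher saline libraries were those with a low mitochondrial share, and without them the log2 difference was 1.35 (adjusted p = 0.0484, limma; 0.0484 to 1.0 over all alternatives, those leaving out 1 library included). Vcam1 was at 123, 108, 124 and 112 FPKM with saline and at 85.7, 101 and 100 FPKM with LPS. These groups did not overlap, and their means were 117 ± 8.05 and 95.6 ± 8.61 FPKM (SD). The share of all genes whose groups did not overlap is not given here for any comparison, so the lack of overlap is a description only. The log2 difference was -0.29 ± 0.21 (SE, 95% interval -0.72 to 0.14, adjusted p = 0.958, limma).

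**Figure D1:**
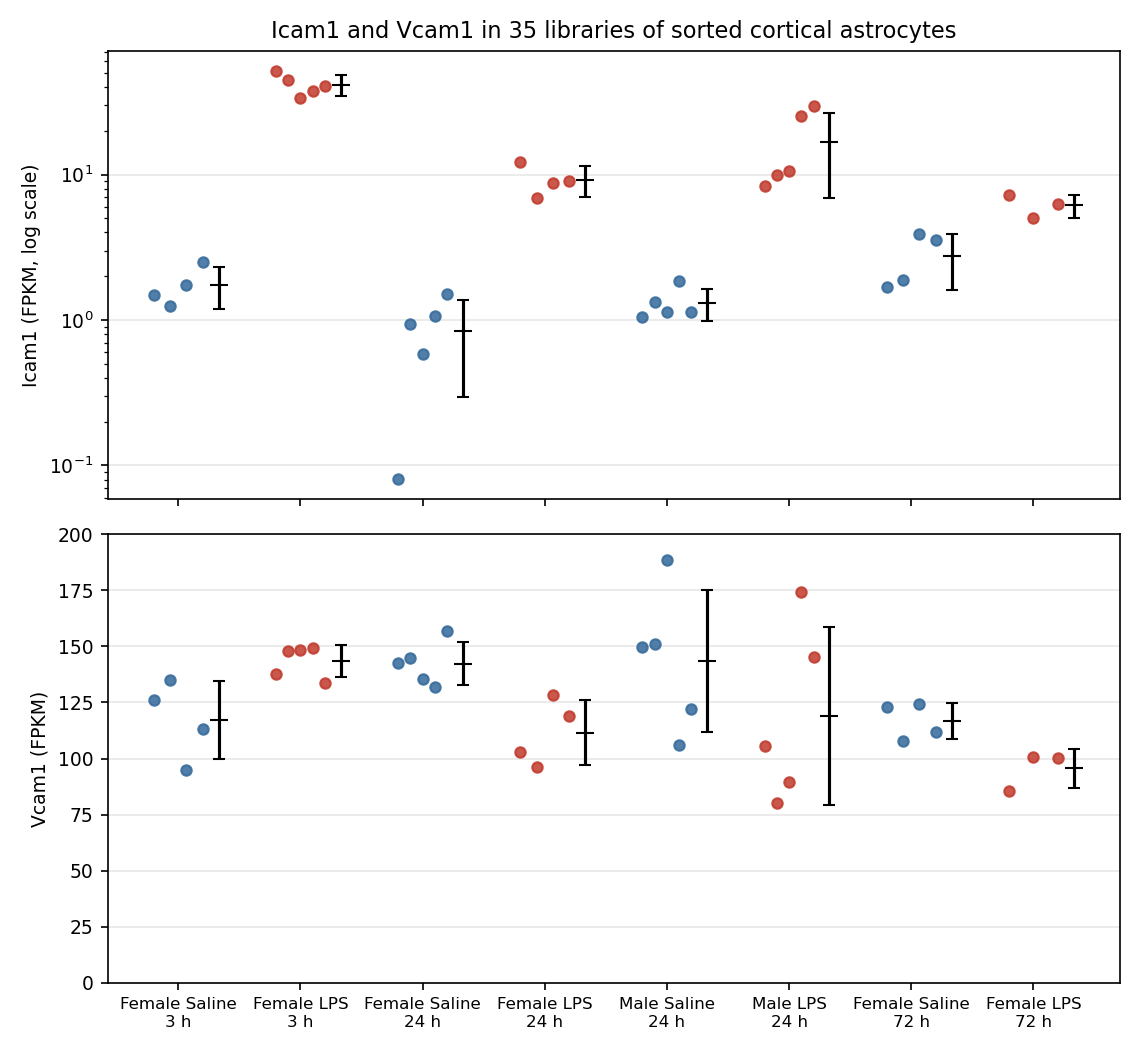
FPKM of Icam1 (upper plot, log scale) and Vcam1 (lower plot, linear scale) in each of the 35 libraries by group. Points are libraries (blue saline, red LPS), and bars give the mean ± SD. All Icam1 LPS points lie above the saline points of the same time and sex, while Vcam1 stays between 80.3 and 189 FPKM throughout.

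In the authors' deposited table, Icam1 had log2 fold changes of 4.28 (adjusted p = 1.98e-81) at 3 h, 2.64 (8.72e-10) in females at 24 h and 3.04 (1.28e-17) in males at 24 h. The adjusted p-values of Vcam1 in the authors' deposited table lay between 0.159 and 1.0 over the same 4 comparisons.

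The response of Icam1 differed between times in females. The log2 fold change at 72 h minus that at 3 h was -2.98 ± 0.43 (SE, 95% interval -3.86 to -2.11, adjusted p = 5.25e-05, limma), where 0.577% of genes were called with a smaller effect at 72 h. The steps from 3 to 24 h (-1.45 ± 0.40, adjusted p = 0.0988) and from 24 to 72 h (-1.54 ± 0.43, adjusted p = 0.129) did not pass. With a pseudocount of 0.1 these steps were -0.92 and -2.39, so the size of each step depends on that choice. Each time has its own saline group, but successive steps share the 24 h libraries. In the contrasts between times and between groups of saline libraries, 0.71% (24 h minus 3 h), 0.345% (72 h minus 24 h) and 0.762% (72 h minus 3 h) of genes were called in either direction for the LPS effect in females, 0 for male minus female, and 0.0515% (male minus female at 24 h), 0.798% (24 h minus 3 h) and 3.04% (72 h minus 24 h) for saline. Vcam1 passed in 0 of all 11 contrasts by limma. Its LPS effect had an unadjusted p under 0.05 for 24 h minus 3 h (-0.66, limma, unadjusted p = 0.0171, adjusted p = 0.412) and for 72 h minus 3 h (-0.59, limma, unadjusted p = 0.0434, adjusted p = 0.468).

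**Figure D2:**
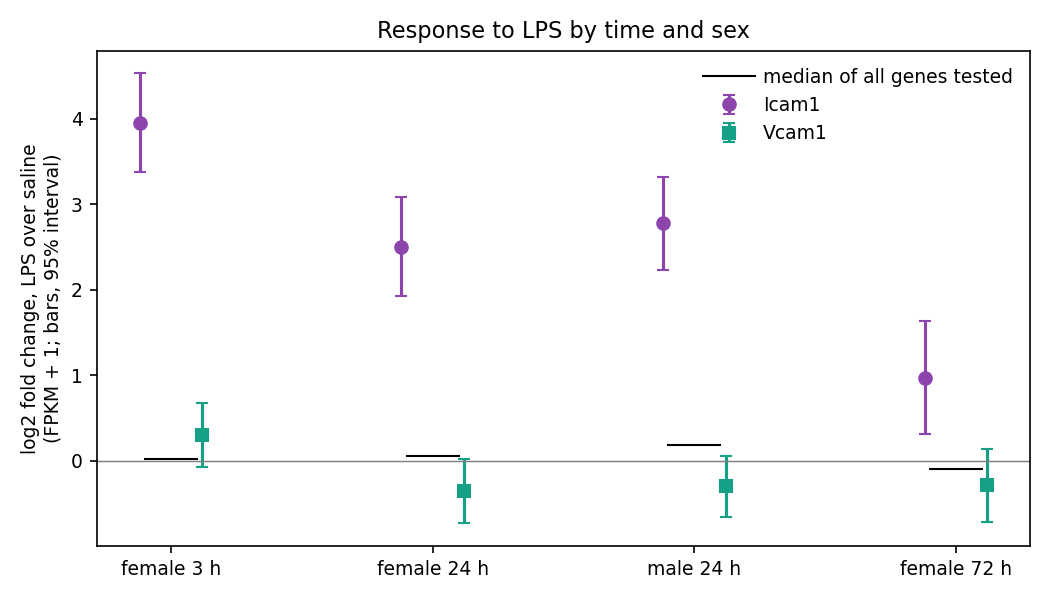
Log2 fold change of LPS over saline from limma, on the log2(FPKM + 1) scale, for Icam1 (circles) and Vcam1 (squares) in the 4 comparisons, with 95% intervals. Black dashes are the median over all genes tested. Icam1 goes from 3.95 at 3 h to 0.97 at 72 h, and the Vcam1 intervals all include 0.

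The members were also compared with each other inside each library. Vcam1 exceeded Icam1 in all 35 libraries. The median ratio of their FPKM was 69.7 in female saline and 3.33 in female LPS libraries at 3 h, 154 and 13.6 in females at 24 h, 113 and 8.11 in males at 24 h, and 44.8 and 16.1 at 72 h. On the log2(FPKM + 1) scale the excess of Vcam1 was smaller with LPS by 3.65 at 3 h, a difference of -3.65 (exact permutation p = 0.0159, adjusted over 4 comparisons 0.0212). It was -2.86 in females at 24 h (exact permutation p = 0.0159, adjusted 0.0212) and -3.08 in males (exact permutation p = 0.00794, adjusted 0.0212). At 72 h it was -1.26, with an exact permutation p of 0.0571. All of these two-sided p-values are the smallest that the group sizes allow, and 3 against 4 libraries cannot go below 0.0571.

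Ordered by mean level, Icam1 ran from LPS at 3 h through male LPS at 24 h, female LPS at 24 h and LPS at 72 h down to saline at 72 h, saline at 3 h, male saline at 24 h and female saline at 24 h. Among neighbours in this order, libraries did not overlap only between LPS at 3 h and male LPS at 24 h, and between LPS and saline at 72 h. For Vcam1 every pair of neighbours overlapped, from LPS at 3 h at the top to LPS at 72 h at the bottom. Among saline females, Icam1 was higher at 72 h than at 24 h by 1.04 ± 0.28 on the log2 scale (SE, adjusted p = 0.0363, limma), with 2.92% of genes called higher. That call was lost in 5 of the 9 fits that left out 1 library, where adjusted p rose to 0.213, and without the libraries of low mitochondrial share (0.65, adjusted p = 0.631). Saline males and females at 24 h differed by 0.37 ± 0.27 for Icam1 and by -0.01 ± 0.17 for Vcam1 (SE), and neither passed (adjusted p = 1.0, limma).

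Because the libraries are bulk samples, fewer cells of a type and less RNA per cell cannot be told apart, and the share of Icam1 RNA from vessel cells was not measured. At 3 h, 0 of 15 endothelial markers were called higher and 6 were called lower, beside 1.94% and 0.443% of all genes. Cldn5, a tight-junction protein of brain endothelium, fell from 20.8 ± 10.3 to 3.17 ± 1.36 FPKM (SD, log2 change -2.34, adjusted p = 6.62e-04, limma). The other endothelial markers that fell were Slco1a4, Egfl7, Tek, Ptprb and Kdr. The mean endothelial level on the log2(FPKM + 1) scale ran from 3.51 to 3.95 in saline and from 2.45 to 2.91 in LPS libraries at 3 h. Falls at 3 h were not limited to endothelial markers, since 2 of 14 microglial and 1 of 6 border macrophage markers were also called lower. The mean microglial and border macrophage levels at 3 h were 3.63 and 2.36 in saline and 2.72 and 1.15 with LPS. Without the libraries of low mitochondrial share, 1 of these microglial calls held and the border macrophage call was lost. At 24 h in males, 2 endothelial markers, Ly6c1 and Egfl7, were called higher, beside 7.08% of all genes. Both calls were lost without the libraries of low mitochondrial share. The mean level in males ran from 2.24 to 3.35 in saline and from 2.51 to 3.41 with LPS. In females at 24 h, Ly6c1 rose and Itm2a fell, beside 2.54% of all genes called higher and 0.798% lower. The fall of Itm2a was lost without the libraries of low mitochondrial share. The mean level in females ran from 1.97 to 2.85 in saline and from 2.03 to 2.92 with LPS. At 72 h no endothelial marker passed, beside 0.0772% of all genes. The level there ran from 3.27 to 4.23 in saline and from 3.80 to 4.13 with LPS. None of the 10 mural cell markers (pericytes and smooth muscle) passed in any of the 4 comparisons.

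Within groups of saline libraries of one number format, Icam1 followed the markers of several other cell types, vessel cells among them. With each value taken as a deviation from its group mean, Icam1 and the endothelial level correlated at Pearson's r = 0.762 over 18 saline libraries (permutation p = 0.00166, adjusted over 10 relations 0.0083) and Spearman's rho = 0.725 (permutation p = 0.00355, adjusted 0.0177). Without the 2 libraries farthest from the median, r was 0.722. With the mural level r was 0.820 (permutation p = 7.9e-04, adjusted 0.0079) and rho 0.804 (permutation p = 0.00178, adjusted 0.0177), and r was 0.769 without the 2 farthest libraries. These relations held among the 12 double-precision saline libraries (r = 0.915, permutation p = 0.00718, and r = 0.928, permutation p = 0.00317) and not among the 6 single-precision ones (r = 0.079 and 0.232, permutation p = 0.722 and 0.721), with deviations taken within format. Among the 16 saline libraries of higher mitochondrial share r was 0.687 and 0.741 (permutation p = 0.00744 and 0.00436). In the 17 LPS libraries these r values were 0.537 and 0.717 and did not pass (adjusted permutation p = 0.198 for each). Vcam1 did not follow the vessel markers in saline (r = -0.11 and -0.05, adjusted permutation p = 0.800 and 0.829), nor did Icam1 and Vcam1 follow each other there (r = -0.16, adjusted permutation p = 0.581). In LPS libraries Icam1 and Vcam1 had r = 0.680 (adjusted permutation p = 0.264), and among the 11 of higher mitochondrial share r was -0.70 (permutation p = 0.0418, unadjusted), the opposite sign. All 10 marker lists were then related to both members, 40 relations in all, a step added after the first results. In saline, Icam1 correlated about as closely with the oligodendrocyte (r = 0.827, rho = 0.794), microglial (r = 0.767, rho = 0.740) and choroid plexus and ependyma levels (r = 0.741, rho = 0.810) as with the endothelial and mural ones, and these 5 lists passed (adjusted permutation p = 0.0166 to 0.0187 for r and 0.0269 for rho). Without the 2 farthest libraries r was 0.775, 0.692 and 0.669 for the oligodendrocyte, microglial and choroid plexus lists. In the same order, within formats r was 0.870, 0.912 and 0.894 among double-precision and 0.353, 0.116 and 0.386 among single-precision libraries. The astrocyte list had r = 0.540 and did not pass (adjusted permutation p = 0.118), nor did the other 4 lists, any list in LPS libraries, or any list with Vcam1. Within formats, however, r of Icam1 with the astrocyte list was 0.799 among double-precision and 0.726 among single-precision saline libraries. Over all saline libraries the lower r of this list thus does not set Icam1 apart from the astrocyte markers. The saline relation of Icam1 was not particular to vessel markers, and the relations were not compared with each other by a test.

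**Figure D3:**
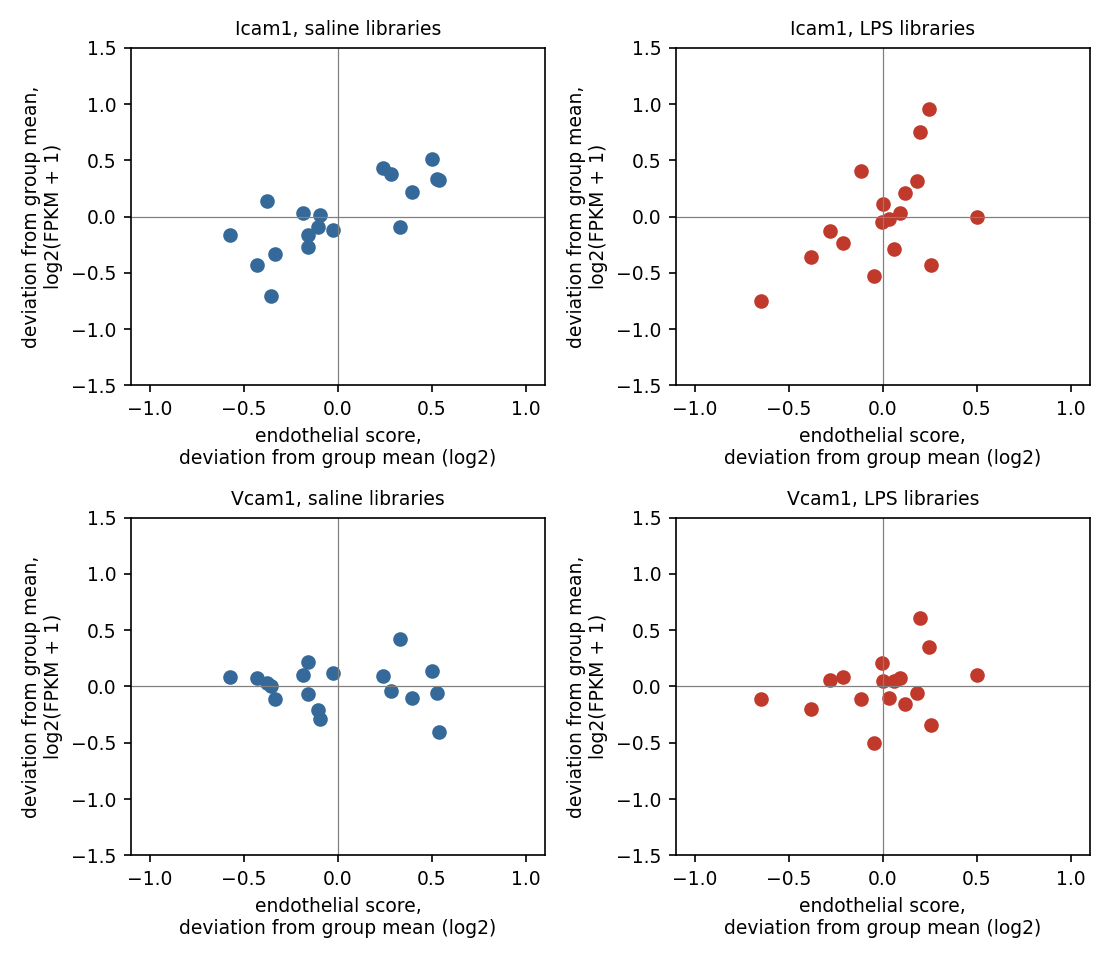
Deviation of Icam1 (upper row) and Vcam1 (lower row) from the group mean, in log2(FPKM + 1), against the same deviation of the mean of 15 endothelial markers, in saline (left, n = 18) and LPS (right, n = 17) libraries. Points are libraries. Over all saline libraries Icam1 rises with the endothelial level (r = 0.762), which held among double-precision libraries only and had r between 0.741 and 0.827 with 3 marker lists of cells other than vessel cells, and Vcam1 does not (r = -0.11).

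The entry whose values were most like Icam1 over the 35 libraries was Gm47079 (Pearson's r of log2 values 0.977, as a description), an antisense RNA that the table lists under a clone name and GENCODE M21 by this one. It lies on the minus strand of chromosome 9 from 21028307 to 21032357, spans Icam4 and the start of Icam5, and shares 511 bases with the last exon of Icam1 (21028307 to 21028817), 14.7% of its own exons. Its FPKM rose from 0.375 ± 0.225 to 6.78 ± 1.66 (SD) at 3 h, with a log2 difference of 2.49 ± 0.22 (SE, adjusted p = 5.73e-10, limma). It was also called higher at 24 h in females (1.26, adjusted p = 3.40e-04) and males (1.39, adjusted p = 5.04e-05), and not at 72 h (0.50, adjusted p = 0.923). In LPS libraries its FPKM was 12.5% to 22.8% of that of Icam1, with a median of 16.4%. Whether the counting used strand is not given in the sources used here, so reads of the shared bases cannot be assigned to either gene. How much of the rise of Gm47079 came from reads of Icam1 was not tested, so antisense transcription was not measured separately. Vcam1 overlaps an antisense RNA too, RP24-245I16.3 (Gm43109), over 61 bases or 0.688% of its exonic bases. That entry stayed between 0.442 and 3.22 FPKM in group means and passed no LPS comparison.

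**Figure D4:**
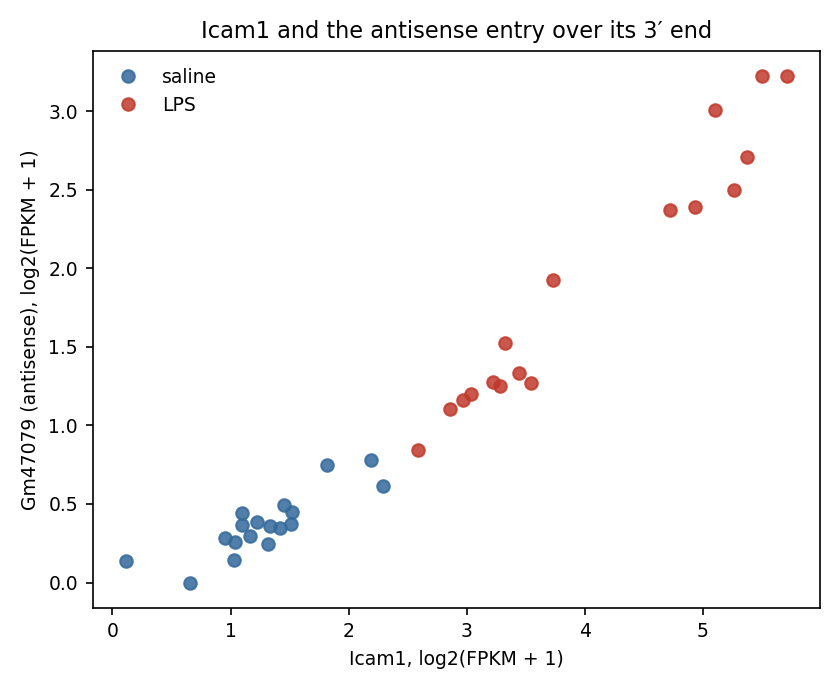
Icam1 against the antisense entry Gm47079, both in log2(FPKM + 1), in the 35 libraries (blue saline, red LPS). Points lie along 1 rising band (r = 0.977), with the LPS libraries at the upper end.

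After this entry, the genes most like Icam1 were Bcl3 (r = 0.942), a nuclear NF-kB cofactor, Ifi47 (0.941) and Tgtp2 (0.937), interferon-induced GTPases, and Socs3 (0.939), which dampens signalling by cytokine receptors. They rose at 3 h with log2 fold changes of 3.32, 4.08, 4.0 and 4.32 for Bcl3, Ifi47, Tgtp2 and Socs3, respectively. The genes most like Vcam1 were less close: Stt3b (0.784), a subunit of the enzyme that adds N-linked sugars to proteins, Sqle (0.783), an enzyme of sterol synthesis, Rdh11 (0.724), a retinol dehydrogenase, Cstf2t (0.709), an RNA processing factor, and Adam10 (0.697), a membrane protease that sheds surface proteins. None of these 5 passed the test in any LPS comparison.

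Other adhesion molecules on the list passed in 2 of the 4 comparisons. Genes called lower made up 0.443% at 3 h, 0.798% in females at 24 h, 1.82% in males at 24 h and 0 at 72 h. Of 20 adhesion molecules listed, 16 had values and were tested. Of these, 1 rose at 3 h, and 0 passed in females at 24 h or at 72 h. In males at 24 h, 5 rose and 1 fell, where 7.08% of all genes were called higher and 1.82% lower. Their median log2 fold changes were 0.15, 0.00, 0.26 and 0.00 (3 h, female 24 h, male 24 h, 72 h), beside 0.02, 0.05, 0.18 and -0.10 over all genes tested. The riser at 3 h was Selp, P-selectin, on which leukocytes roll, from 0.0368 ± 0.0606 to 2.64 ± 0.755 FPKM (SD, log2 difference 1.79, adjusted p = 3.81e-07, limma). In males at 24 h, Selp (1.2), F11r (1.52), a junctional adhesion molecule, Icam2 (1.23) and Pecam1 (1.15), both of endothelium and blood cells, and Icam5 (1.11), a neuronal relative whose start the antisense entry above also covers, were called higher on the log2 scale. Jam2, another junctional molecule, fell by 0.55. Of 9 neuronal markers, 3 (Rbfox3, Slc17a7 and Meg3) also rose in males at 24 h, and their part in the Icam5 value was not tested. All 6 adhesion calls in males, and those of the 3 neuronal markers, were lost without the libraries of low mitochondrial share. At 3 h, Icam2 and Pecam1 had log2 differences of -0.74 and -0.40 (adjusted p = 0.419 and 0.687), and Icam5 0.64 (adjusted p = 0.264). Sele was not analysed here.

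Counter-receptors on leukocytes were called in males at 24 h and in females at 72 h. Of 11 listed, 6 had values and were tested. Among them 0 passed at 3 h or in females at 24 h. In males at 24 h 2 rose and at 72 h 1 rose, beside 7.08% and 0.0772% of all genes called higher. Their medians were -0.31, 0.28, 0.38 and 0.41, beside 0.02, 0.05, 0.18 and -0.10 over all genes. Itgb2, the shared subunit of the ICAM-1 receptors, rose at 72 h from 1.12 ± 0.683 to 4.45 ± 1.16 FPKM (SD, log2 difference 1.39, adjusted p = 0.014, limma) and in males at 24 h from 0.299 ± 0.312 to 2.09 ± 0.840 FPKM (1.24, adjusted p = 4.24e-04). Itgam, the alpha subunit of Mac-1, rose in males at 24 h from 0.564 ± 0.266 to 5.78 ± 3.48 FPKM (1.94, adjusted p = 0.00141). Itga4 and Itgb1, the subunits of the VCAM-1 receptor VLA-4, passed in 0 of the 4 comparisons. Itgb1 was at 28.2 to 37.8 FPKM in group means, and Itga4 at 0.414 to 1.17 FPKM. The leukocyte genes S100a8 and S100a9 rose at 24 h in both sexes and Ptprc rose at 72 h (1.16 ± 0.387 to 7.72 ± 3.36 FPKM). So 0, 2, 2 and 1 of 3 blood leukocyte markers passed (3 h, female 24 h, male 24 h and 72 h). Beside them, 1.94%, 2.54%, 7.08% and 0.0772% of all genes were called higher. Only these 3 of 9 listed had values. The 72 h call rests on Ptprc alone, where the microglial level averaged 4.47 with LPS and 3.95 with saline. Among 14 microglial markers, 0 rose and 2 fell at 3 h, and 0 rose and 1 fell in females at 24 h. In males at 24 h 4 rose and 2 fell. Genes called lower made up 0.443%, 0.798% and 1.82% of all genes in these comparisons. At 72 h no microglial marker passed. The part of these cells in the integrin values was not tested. The 2 integrin calls and all microglial calls in males were lost without the libraries of low mitochondrial share. The Itgb2 call at 72 h held.

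Of 14 genes that link ICAM-1 and VCAM-1 to the cytoskeleton or shed them, 0, 2, 3 and 0 rose and 0 fell, beside 1.94%, 2.54%, 7.08% and 0.0772% of all genes called higher. Their medians were 0.25, 0.01, 0.06 and -0.03, the first above the all-gene median of 0.02 and the third below that of 0.18. Msn, the actin linker moesin, rose in females at 24 h from 10.8 ± 2.12 to 24.5 ± 5.21 FPKM (SD, log2 difference 1.11, adjusted p = 0.00442, limma) and in males by 0.88. Flna, an actin crosslinker, rose by 1.11 in females and 1.08 in males at 24 h. In males, 1 of the 3 calls held without the libraries of low mitochondrial share.

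Some receptors and transcription factors known to induce Icam1 rose. In the order 3 h, female 24 h, male 24 h and 72 h, genes called higher made up 1.94%, 2.54%, 7.08% and 0.0772% of all genes, with all-gene medians of 0.02, 0.05, 0.18 and -0.10. Of 14 receptors, 4, 3, 3 and 0 rose and 0 fell (medians 0.35, 0.17, 0.15 and 0.12, the male value below the all-gene one). Cd14, the LPS co-receptor, rose from 2.09 ± 0.857 to 49.5 ± 24.1 FPKM at 3 h (SD, log2 difference 3.93, adjusted p = 9.44e-08, limma), and by 1.65 in females and 2.50 in males at 24 h. Osmr, the oncostatin M receptor, rose by 2.17, 2.36 and 1.24 and Tnfrsf1a, the TNF receptor, by 1.21, 1.23 and 1.41 in the same 3 comparisons. Of 17 transcription factors, 7, 3, 5 and 0 rose and 0 fell (medians 1.11, 0.47, 0.65 and 0.29). Among those at 3 h were Cebpb (3.52), Cebpd (2.81), Irf1 (2.52), Relb, Nfkb2 and Stat3. At 24 h, Irf1 rose by 1.32 in females and 1.13 in males. The NF-kB subunit Rela, which carries the activating domain, passed in none of the 4.

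Feedback genes of NF-kB, themselves induced by it, numbered 7, 2, 3 and 0 risers among 11, and 0 fell (medians 1.65, 0.31, 0.69 and 0.24). In the same order (3 h, female 24 h, male 24 h and 72 h), 1.94%, 2.54%, 7.08% and 0.0772% of all genes were called higher. The all-gene medians were 0.02, 0.05, 0.18 and -0.10. The 4 saline libraries at 3 h all list Bcl3 at 0, and it was at 9.06 ± 1.30 FPKM (SD) with LPS. Birc3, an inhibitor of apoptosis, rose by 2.26, and Nfkbia, the inhibitor that holds NF-kB in the cytoplasm, rose from 49.5 ± 18.4 to 193 ± 29.3 FPKM at 3 h (SD, log2 difference 1.99, adjusted p = 8.30e-06, limma). Among 7 inducing cytokines 5, 1, 3 and 0 rose and 0 fell (medians 2.66, 0.71, 0.89 and 0.58). Il1b rose by 4.29 at 3 h, 1.98 in females and 2.66 in males at 24 h. Il6 was listed at 0 in the saline libraries at 3 h and was at 19.3 ± 14.0 FPKM with LPS. In males at 24 h, without the libraries of low mitochondrial share, the 5 transcription factors and 3 feedback genes called became 1 each and the 3 receptors 1.

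**Figure D5:**
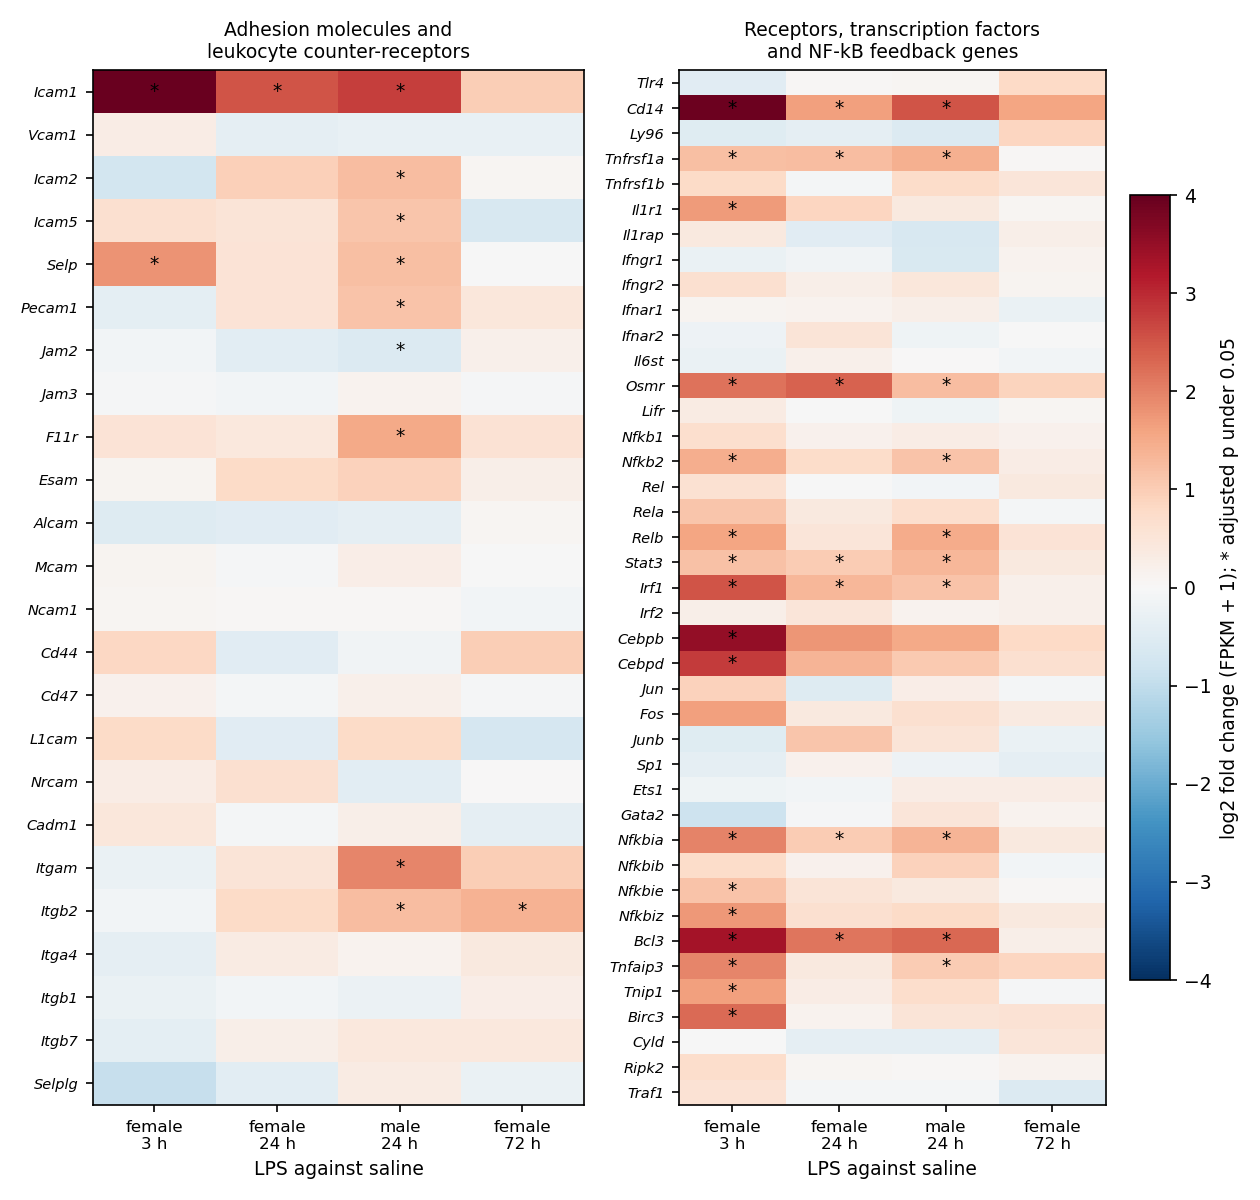
Log2 fold change of LPS over saline (color, on the log2(FPKM + 1) scale, limma) in the 4 comparisons. Left, Icam1, Vcam1, 16 adhesion molecules and 6 counter-receptors; right, 14 receptors, 16 of the 17 transcription factors and 11 NF-kB feedback genes. Asterisks mark an adjusted p under 0.05. Icam1 is the adhesion gene with the strongest color at 3 h (3.95), and most asterisks at 3 h are on the right.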

How the data were processed

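Per the labels' protocols, RNA of sorted cortical astrocytes (column kit) was amplified by SMART-seq HT, and Nextera XT libraries were read on a NovaSeq. The deposited FPKM were made by the authors on mm10; HISAT2, StringTie and DESeq2 are named in the submitters' processing notes, without versions. The authors' deposited table also gives log2 fold changes and adjusted p-values. No read counts were used, so the depth is unknown and no counting interval is given.

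Of 19584 entries, 11 repeated a gene identifier and were dropped, and 20 date-like symbols were restored from the identifiers. The smallest mean FPKM in the table is 0.500. Genes reaching FPKM 1 in 3 or more libraries (19426) were fitted with limma 3.58.1 in R 4.3.3 on log2(FPKM + 1), with 1 coefficient per group over all 35 libraries, an intensity trend, two-sided tests and Benjamini-Hochberg adjustment within each of 11 contrasts (threshold 0.05). Marker levels are means of log2(FPKM + 1) over a list. Correlations used 100000 permutations within groups, and those with all 10 marker lists were added after seeing the data. The procedure was tested on simulated data.

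The highest correlation between libraries across genes was 0.972, so none was treated as a duplicate. The labels do not say whether libraries came from separate animals, so the p-values reflect variation among libraries, which may be technical.

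The members, the 7 pathway and 10 marker lists and the tests were chosen with earlier results of these data known. Named were both members, up to 2 called members with the largest change per pathway list and comparison, a set of adhesion genes and integrins, called markers, and the 5 genes most correlated with each member. Some genes that this rule names are not reported here. Genes beyond these were named after their values were seen.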

Additional observations from a re-analysis of the deposited data

Results flagged for a closer look

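The LPS effect on Icam1 in females was smaller at 72 h than at 3 h by a test of the difference itself, with a log2 value of -2.98 (adjusted p = 5.25e-05, limma). Each fit that left out 1 library gave a value between -3.13 and -2.84, with adjusted p from 5.84e-05 to 5.99e-04. Of 14 sets of 4 or 5 libraries (Icam1 or Vcam1 in a group), 0 held a library apart from the others by Dixon's test, where chance gives about 1 in 20.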

How the results depend on the processing

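The calls of Icam1 at 3 h, in females at 24 h and in males at 24 h held in every fit that left out 1 library (3.86 to 4.08, 2.33 to 2.63 and 2.54 to 2.97 on the log2 scale) and under every other alternative, except for females at 24 h among double-precision libraries alone (2.14, adjusted p = 0.468), where 1 LPS library was left. Quantile normalization gave -0.52 for Vcam1 in males at 24 h, -1.62 for the Icam1 step from 3 to 24 h (adjusted p = 0.0303), 0.78 for Icam1 in saline at 72 h against 24 h, and turned the male minus female values of Vcam1 to -0.092 (LPS effect) and 0.12 (saline). A pseudocount of 0.1 gave -0.19 for the male minus female LPS effect on Icam1. Single-precision libraries alone gave -0.54 and -0.43 for that effect on Icam1 and Vcam1 and 0.20 for Vcam1 in saline, and double-precision ones 0.21 for Vcam1 in males. Fitting only the groups compared gave 1.04 for Icam1 in saline at 72 h against 24 h, with adjusted p of 0.129. Without the 8 libraries of low mitochondrial share, an alternative chosen after seeing the data, the values were 1.35 for Icam1 at 72 h, -0.32 and -0.44 for the male minus female effect on Icam1 and Vcam1, -1.38 for the Icam1 step from 3 to 24 h (adjusted p = 0.0419) and 0.65 for Icam1 in saline at 72 h against 24 h. In males at 24 h the median log2 difference of all genes was 0.18, and 0.29 after rescaling to the same sum or 0.02 after quantile normalization. The cause of these shifts was not tested.

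Leaving out 1 library gave 0.86 to 1.18 for Icam1 in saline at 72 h against 24 h, -1.63 to -1.32 for its step from 3 to 24 h (called without female saline 24 h replicate 1, adjusted p = 0.0433), and -0.10 to 0.18 and -0.12 to 0.088 for the male minus female LPS effect and saline level of Vcam1. Genes called higher numbered 376, 494, 1376 and 15 (3 h, female 24 h, male 24 h, 72 h). Leaving out 1 library gave 315 to 736 in females at 24 h, 590 to 1574 in males and 3 to 25 at 72 h. The lowest came without female LPS 24 h replicate 1, male LPS 24 h replicate 5 and female LPS 72 h replicate 3. In males, quantile normalization gave 802, only the groups compared 2224, single-precision libraries 152, double-precision libraries 95 and the libraries without low mitochondrial share 133. In females at 24 h, only the groups compared gave 303 and double-precision libraries 1. At 72 h, only the groups compared gave 2 and the low mitochondrial exclusion 39. The relation of Vcam1 with the endothelial level in saline was 0.18 without the 2 farthest libraries.

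Correlations of same-numbered deviations ran from -0.404 to 0.372. They were not compared with those of differently numbered libraries, so they do not settle whether replicate numbers pair libraries. With the replicate block Icam1 gave 3.87, 2.59, 2.78 and 1.08 and no call of either member changed, with 369, 484, 1560 and 22 genes called higher. Within replicate block pairs, the excess of Vcam1 over Icam1 changed with LPS by -3.63, -2.95 and -3.08 (3 h, female 24 h, male 24 h). The exact sign-flip p was 0.167 after adjustment, since 3 to 5 pairs cannot reach 0.05.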
